A study of Mus musculus with 22 samples.

Results

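The regions described here are the H3K9me3 sites that were called only after knockdown of TERRA. They are the H3K9me3 peaks of TERRA KD replicate 1 that overlapped a peak of TERRA KD replicate 2 by at least 1 bp and overlapped no peak of either scramble KD list. The rule kept 1634 of 25490 peaks (6.41%), and these regions are called TERRA KD-only sites. They were chosen by the very H3K9me3 values that separate the conditions, so their number, width, tag counts and p-values are given as a description, without a test.

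The study asked how the telomeric transcript TERRA affects ATRX binding, heterochromatin and G-quadruplexes in mouse embryonic stem (ES) cells of a CAST/Ei x 129/Sv/Jae hybrid line. Cells received TERRA LNA gapmers or scramble LNA gapmers for 12 h and were grown with LIF. LNA gapmers are short modified oligonucleotides that direct the cutting of their target RNA. ATRX, H3K9me3, G4 and ATAC libraries were made in 2 replicates per condition, which gave 16 peak lists. All groups are one hybrid line, described by the study as XX and grown on feeder fibroblasts that were removed before transfection. The study calls the ATRX and G4 replicates biological replicates, and no source used here says how the cultures of a condition were separated.

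TERRA is the RNA transcribed from chromosome ends and carries UUAGGG repeats. H3K9me3, the trimethylation of lysine 9 on histone H3, marks constitutive heterochromatin and silences transposable elements, among them the LINE-1 retrotransposons and endogenous retroviruses that make up much of the ES cell heterochromatin. ATRX is a chromatin remodeller that deposits histone H3.3 together with DAXX at telomeres and repeats, and G-quadruplexes (G4) are stacked structures of guanine-rich DNA to which ATRX can bind. ATAC-seq maps open chromatin.

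Depth per library, as tags left after duplicate removal, ran from 5435286 to 13898785 for H3K9me3, 4104486 to 15506154 for ATRX, 2961038 to 24588605 for G4 and 5976014 to 7883648 for ATAC. The H3K9me3 lists of replicate 1 held 26414 (scramble KD) and 25490 (TERRA KD) peaks with median lengths of 2404 and 3119.5 bp. Those of replicate 2 held 76213 and 74925 peaks with medians of 491 and 515 bp, from ChIP libraries of 5942692 and 5435286 tags. The input of TERRA KD replicate 2 was deeper than that of scramble KD replicate 2 (28622103 against 19735093 tags). A site without a peak is one where enrichment was not detectable in that library, not one where the mark was absent. Of 10 ES cell marker genes, 9 or 10 had an ATAC peak within 1 kb of their start in each library, and of 10 feeder fibroblast markers 4 or 5 had one.

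The sites carried mostly repetitive DNA, and one sequence stood out. Words of 24 bases were counted on both strands in every site, and the word held by most TERRA KD-only sites was present in 490 of the 1628 sites that lie on assembled chromosomes (30.1%). It reads as follows, with capitals for the whole word.

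Shared word: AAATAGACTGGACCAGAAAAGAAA

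From general knowledge the word was read as part of the first open reading frame of mouse LINE-1, a non-LTR retrotransposon that encodes its own RNA-binding protein and reverse transcriptase. In the reference genome (GRCm38) it occurs 16780 times. At 309 of the 490 sites (63.1%) it lay in a reading frame of at least 300 codons without a stop, and the median frame had 379 codons. No repeat annotation was used here, so neither the family nor the subfamily was checked. The 3 sites below show how the word sits in copies that differ from each other in the bases around it, with the word in capitals and each window written 5′ to 3′ on the plus strand of GRCm38.

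chr11:29976936-29977015: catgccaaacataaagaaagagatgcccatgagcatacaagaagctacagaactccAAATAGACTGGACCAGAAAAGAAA

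chr6:106398941-106399020: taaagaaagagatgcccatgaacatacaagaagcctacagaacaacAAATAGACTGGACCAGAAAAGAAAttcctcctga

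chr13:3160111-3160190: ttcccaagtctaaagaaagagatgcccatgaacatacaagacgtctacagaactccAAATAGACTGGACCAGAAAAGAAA

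The same word was present in 21.5% of all TERRA KD replicate 1 peaks and in 18.5% of the 11298 constant sites on chromosomes, which are the TERRA KD replicate 1 peaks found in all 4 H3K9me3 lists. Scramble KD-only sites follow the mirrored rule, scramble KD replicate 1 peaks that overlap scramble KD replicate 2 and neither TERRA KD list. They held the word at 117 of 906 sites (12.9%), close to the 13.3% of all scramble KD replicate 1 peaks. The word was picked because it was the most frequent one in the TERRA KD-only sites. The word most frequent in the scramble KD-only sites, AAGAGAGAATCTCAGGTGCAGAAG, was also held by more of the TERRA KD-only (29.1%) than of the scramble KD-only sites (13.7%).

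The leading word of the constant sites was a different one, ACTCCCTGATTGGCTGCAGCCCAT. It was found in 20.9% of constant sites and in only 34 TERRA KD-only sites (2.09%). Scramble KD-only sites held it at 2.65%. Dinucleotide runs of AC, the third word of the TERRA KD-only sites, were held by 6.94% of them against 15.3% of constant sites, which are longer.

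Soft-masked bases, the lower-case letters with which the reference genome marks interspersed repeats and simple sequence, filled a median of 80.7% of a TERRA KD-only site. The median was 54.2% in scramble KD-only sites, 72.2% in constant sites and 72.1% in all TERRA KD replicate 1 peaks. At least 90% of the bases were masked in 645 TERRA KD-only sites (39.5%), against 21.8% of scramble KD-only and 23.1% of constant sites. The sites that held the shared word were masked over a median of 99.7% of their length, and those without it over 58.0%. Bowtie2 with default settings places a read that matches several copies at one of them, so the value of a single copy is uncertain where copies are near-identical. The median GC content was 41.1%, and 43.4% in scramble KD-only sites. The whole lists differed likewise, with 41.9% for TERRA KD and 43.6% for scramble KD replicate 1 peaks. The median ratio of observed to expected CpG was 0.215 in TERRA KD-only and 0.191 in scramble KD-only sites.

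**Figure D1:**
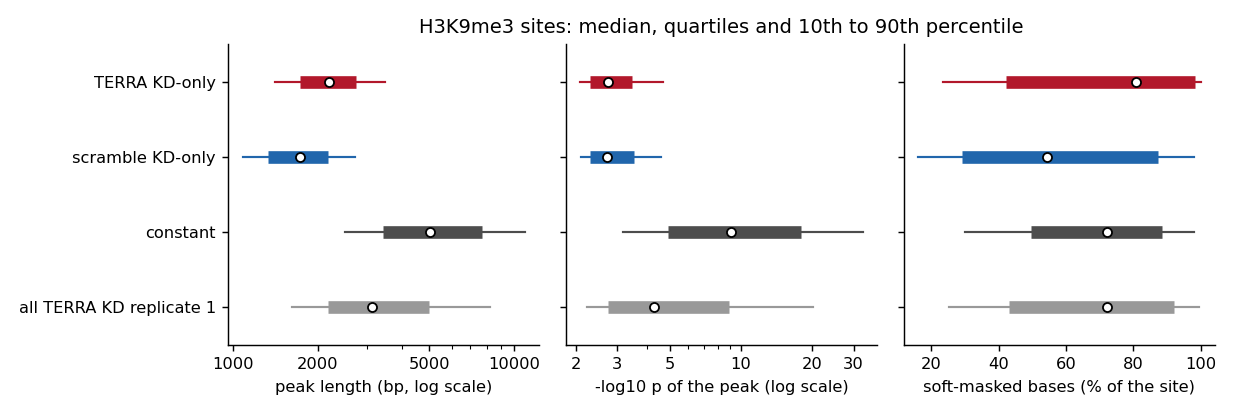
Length, -log10 p and soft-masked share of TERRA KD-only, scramble KD-only, constant and all TERRA KD replicate 1 peaks of H3K9me3. Circles are medians, thick bars the quartiles and thin lines the 10th to 90th percentile. Length and -log10 p are on log axes. TERRA KD-only sites had medians of 2191 bp and 2.73, under those of constant sites, and the highest median masked share (80.7%).

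TERRA KD-only sites were narrow and weak by the measures that chose them. Their length ran from 373 to 9608 bp with a median of 2191 bp, and constant sites had a median of 5020 bp. Only 30 sites (1.84%) reached 5000 bp, against 50.2% of constant sites, and all sites together covered 3838.78 kb. A site held a median of 47 tags in TERRA KD replicate 1 (range 14 to 461), and constant sites held 162. The median fold enrichment over the local background was 24, and it was 35.2 at constant sites. The median -log10 p was 2.73, where the lists start at 2, and 1002 sites (61.3%) were under 3. A false discovery rate of at most 5% was given for 177 sites (10.8%), and for 76.4% of constant sites. Scramble KD-only sites were as weak by p-value, with a median -log10 p of 2.71, and had a median length of 1728 bp. They held a median of 35 tags, and a false discovery rate of at most 5% was given for 4 of them (0.441%). For the whole replicate 1 lists that share was 46.3% in TERRA KD and 21.1% in scramble KD.

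The second TERRA KD library had 1 small peak on most sites. Exactly 1 replicate 2 peak lay on 1357 sites (83.05%), and 32 sites carried 3 or more. These peaks covered a median of 24.9% of the site, and the best of them had a median of 6 tags, a length of 509 bp and a -log10 p of 2.98. Both libraries reached a -log10 p of 5 at 20 sites (1.22%), and both stayed under 3 at 552 (33.8%). The number of sites follows from these thresholds: with a -log10 p of 5 asked of both TERRA KD peaks 20 sites were left, and with 50% of the site covered by replicate 2 peaks 139 were left.

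**Figure D2:**
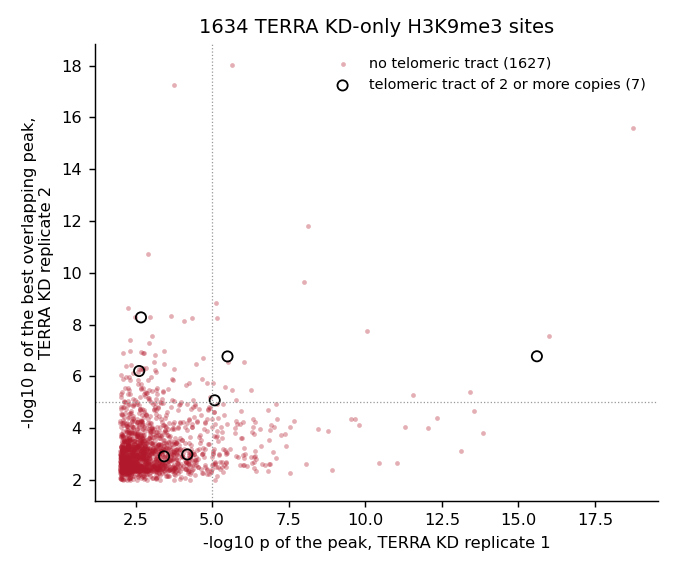
The -log10 p of each of the 1634 TERRA KD-only sites in TERRA KD replicate 1 (horizontal axis) and of the best overlapping peak in TERRA KD replicate 2 (vertical axis). Dotted lines mark 5 on both axes, black circles the 7 sites with a telomeric tract. Most points lie in the lower left corner, and 20 sites pass 5 in both libraries.

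The mirrored rule gave 908 of 26414 scramble KD replicate 1 peaks (3.44%). The TERRA KD-only count was also the larger one with both peaks at a -log10 p of at least 5 (20 against 2), with 50% of the site covered (139 against 115), with no peak of the other condition within 5000 bp (920 against 565), with that threshold in all 4 lists (525 against 141), with lists of equal length (837 against 476) and with replicate 2 as the anchor (5297 against 1995). With a library left out the count was 4454 without scramble KD replicate 1, 3527 without scramble KD replicate 2, 4085 without TERRA KD replicate 2 and 30699 without TERRA KD replicate 1. Depth moved with the count in replicate 1, where TERRA KD had 13898785 and scramble KD 12090614 tags, and against it in replicate 2. Its part in the result was not tested.

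Many of the sites bordered on other H3K9me3 peaks. The nearest scramble KD peak was a median of 6803.5 bp away, 270 sites (16.5%) lay under 1 kb and 714 (43.7%) under 5 kb from one, and 1603 (98.1%) lay within 100 kb. Scramble KD-only sites were 17.3% under 1 kb and 37.8% under 5 kb from a TERRA KD peak. The nearest constant site was a median of 54709 bp away. Just inside the rule, a site on chrY (53875631 to 53877662) touched a scramble KD peak with a gap of 0 bp, and just outside it a replicated TERRA KD peak on chr13 (64561586 to 64562956) shared 3 bp with one. Under 100 bp from a scramble KD peak were 32 sites, and 31 excluded sites shared under 100 bp with one. The sites were spread out singly, with a median of 420915 bp to the next TERRA KD-only site and 40 sites (2.45%) under 1 kb from it.

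The sites were found on every chromosome, and the X chromosome held more than any other. It carried 194 sites (11.9%), while 9.004% of all TERRA KD replicate 1 peaks and 7.73% of constant sites were on X. Of the X peaks of TERRA KD replicate 1, 8.45% were TERRA KD-only, above the range of 5.16% (chr17) to 7.34% (chr12) over the autosomes. The X chromosome held 47 scramble KD-only sites, 2.34% of its scramble KD replicate 1 peaks, below every autosome. The X share of whole H3K9me3 lists was 7.61% and 7.59% in scramble KD, and 9.004% and 7.69% after TERRA knockdown. X sites were mostly intergenic (91.2%, against 75.9% of the others) and had a median masked share of 89.3%.

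**Figure D3:**
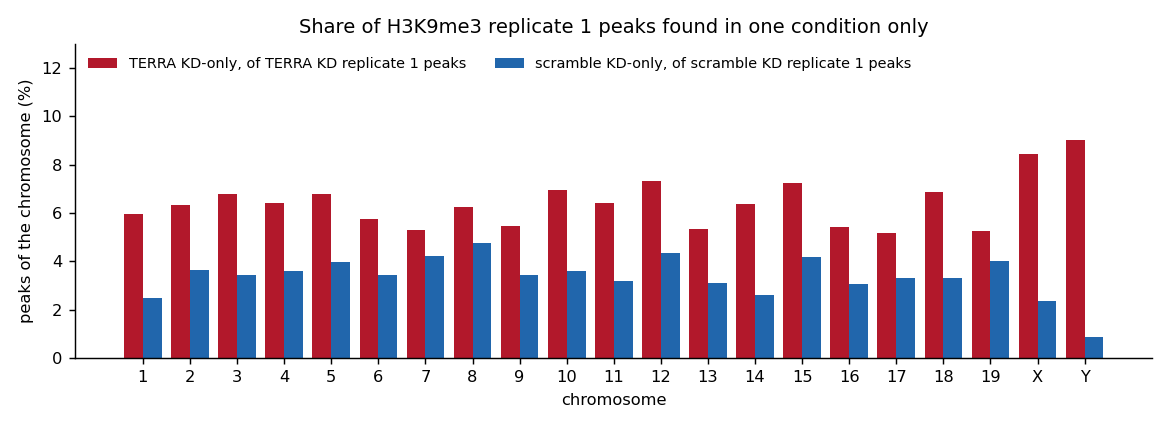
Share of the H3K9me3 replicate 1 peaks of each chromosome that were TERRA KD-only (red, of TERRA KD peaks) or scramble KD-only (blue, of scramble KD peaks), in percent. X stood at 8.45% and 2.34%, and Y at 9.03% and 0.855%.

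The Y chromosome held 13 TERRA KD-only sites, although the line is described as XX. All H3K9me3 lists had peaks on Y, 117 and 244 in scramble KD, 144 and 274 after TERRA knockdown, and the ATAC lists had 135 to 189. The 13 sites had a median masked share of 99.9%. The part of feeder or other DNA was not tested. With autosomes and X alone the shares of sites with ATRX, G4 or ATAC peaks differed between the conditions in the same directions.

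By their centre, 1270 sites (77.7%) were intergenic, 330 (20.2%) intronic, 18 (1.10%) exonic and 10 (0.612%) within a promoter, taken as 1000 bp before to 100 bp after a start. All TERRA KD replicate 1 peaks were 78.9% intergenic, 19.4% intronic and 0.322% promoter. A gene body was overlapped by 362 sites, in 340 of 26182 curated RefSeq genes (1.30%). Auts2, a regulator of neuronal gene expression on chr5, was the one gene with 3 sites, and 25 genes had at least 2. The adhesion gene Cdh13 had 2 TERRA KD-only and 2 scramble KD-only sites. Auts2 and Cdh13 are long, at 1105.89 and 1041.32 kb, where the median over all genes was 13451 bp. They held 6 and 20 TERRA KD replicate 1 peaks. Only 16 sites (0.979%) lay within 1 Mb of the distal chromosome end, where 1.22% of all TERRA KD replicate 1 peaks lay.

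Gene families known for H3K9me3 were counted in the same way, beside the 1.30% of all genes that carried a site. Of 368 Zfp zinc finger genes, many of which encode KRAB repressors of retrotransposons, 6 carried a TERRA KD-only site (1.63%), among them Zfp182, Zfp286, Zfp950 and Zfp975, and 4 carried a scramble KD-only site. Of 1490 olfactory, vomeronasal and trace amine receptor genes 6 carried one, among them Olfr113, Olfr1341, Olfr741 and Vmn1r48, which is 0.403% of genes with a median length of 948 bp. Of receptor genes with any H3K9me3 peak of TERRA KD replicate 1 the 6 are 9.38%, and over all genes with such a peak the share was 9.82%. Of the 113 Zfp genes with such a peak the 6 are 5.31%, below that share. None of the listed 58 clustered protocadherin genes, 34 imprinted genes, 20 germline genes and 20 genes of H3K9 methylation and ATRX held a site. The imprinted, germline and H3K9 methylation lists were chosen by symbol and do not hold every gene of these kinds. At the 1.30% share of all genes lists this short would hold fewer than 1. Protocadherin genes are long, however, with a median of 88176.5 bp against 13451 bp over all genes. A scramble KD-only site was present on 2 of the 34 imprinted genes and on none of the other 3 lists. A H3K9me3 peak of TERRA KD replicate 1 was present on 32, 8, 9 and 3 of these genes. Of the 32 protocadherin genes with such a peak 0% carried a TERRA KD-only site, against 9.82% of all genes with one. Each gene was counted on its own. Where gene bodies of a cluster overlap, the same peak counts for several genes, so the 32 are not separate observations.

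The start of a protein-coding gene lay within 1 kb of 14 sites (0.857%), against 1.73% of all TERRA KD replicate 1 peaks. The share was 1.43% of scramble KD-only and 2.22% of constant sites. The best ranked of the 14 was at Clec2g on chr6 (128934274 to 128936272), a C-type lectin gene. It had 72 tags and a -log10 p of 7.25 in replicate 1 and 8 tags and 3.73 in replicate 2. The site at Cd209c on chr8 (3945986 to 3947859), another lectin gene, had 55 and 7 tags and a -log10 p of 4.65 and 4.51. Neither held an ATRX, G4 or ATAC peak in any library. The site over the start of Tktl2 on chr8 (66509875 to 66513067), a transketolase-like gene, had a -log10 p of 3.48 and 2.48, ATRX peaks in both TERRA KD lists and neither scramble KD list, G4 peaks in both scramble KD lists and neither TERRA KD list, and ATAC peaks in all 4. Sites also lay within 1 kb of the starts of Tpst1, 4930512M02Rik, Olfr113, Vmn1r48, Gm13271, Olfr1341 and Fthl17-ps1, with a -log10 p of 2.33 to 4.36 in replicate 1. Those near Tpst1, Vmn1r48, Gm13271 and Olfr1341 did not reach the start and ended 163 to 892 bp from it. Of these 10 sites 8 had no ATRX peak in any list, 4 had an ATAC peak in all 4 lists and 6 in none.

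The 10 sites with the best H3K9me3 ranks were 1478 to 6888 bp long. The first, on chr3 (156177852 to 156182542, 4691 bp, intergenic), had 205 tags, a -log10 p of 18.7 and 53.6-fold enrichment in replicate 1, and 3 replicate 2 peaks, the best at 15.6. It was masked over 97.3% of its length and carried ATRX only in the first TERRA KD library. The second lay in an intron of Itpr2 on chr6 (146446302 to 146451189), an inositol trisphosphate receptor gene, at 15.98 and 7.57. Others were in introns of Nrg3 (chr14, 11.6 and 5.27), Gmps (chr3, 9.68 and 4.36) and Zfp984 (chr4, 9.52 and 4.34). ATRX peaks lay on 6 and 4 of the 10 in the TERRA KD libraries and on 1 and 1 in the scramble KD libraries. Over all 1634 sites the shares were 12.4% and 4.59% against 0.979% and 3.43%. In all TERRA KD replicate 1 peaks they were 30.9% and 11.6% against 5.75% and 7.96%. The 10 were ranked by TERRA KD H3K9me3 peaks, which share their inputs with the TERRA KD ATRX peaks. ATAC peaks were present in all 4 libraries at 5 of the 10 (15.4% of all sites). G4 peaks were present at 7 and 9 of the 10 in scramble KD replicates 1 and 2, and at 7 and 5 after TERRA knockdown. Over all sites the shares were 27.9% and 49.3%, and 30.5% and 27.4%. Most of the 10 were longer than the median site of 2191 bp, so they are set beside sites of unlike width.

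The third of these, over an exon of Xkrx on chrX (134149524 to 134151001), a gene of the XK family, had the highest fold enrichment of all sites, 173-fold with 107 tags and a -log10 p of 15.6, and 6.78 in replicate 2. It is 1 of 7 sites (0.428%) that held a tract of at least 2 TTAGGG copies on either strand, the sequence of telomeres and of the TERRA repeat. Such tracts were in 0.498% of all TERRA KD replicate 1 peaks and 0.397% of constant sites. They were in 0.208% of all scramble KD replicate 1 peaks and in 2 scramble KD-only sites (0.220%). Parts of the tracts in a pair of these sites are shown, with perfect TTAGGG copies in capitals, on the strand that reads TTAGGG.

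Xkrx, chrX:134150149-134150268, plus strand: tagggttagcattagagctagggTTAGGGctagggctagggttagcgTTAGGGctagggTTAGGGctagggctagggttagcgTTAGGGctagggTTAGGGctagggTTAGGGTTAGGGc

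near Olfm1, chr2:28184280-28184389, minus strand: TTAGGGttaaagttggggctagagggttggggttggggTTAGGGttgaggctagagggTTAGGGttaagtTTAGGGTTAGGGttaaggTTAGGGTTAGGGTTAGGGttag

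The Xkrx site held 16 copies in 4 tracts, the longest of 9, which the stretch above does not show. The site near Olfm1 held 28 copies in 10 tracts with a -log10 p of 3.43 and 2.91. ATRX peaks lay on 5 of the 7 sites in each replicate 1 list and on 3 in each replicate 2 list. Over all 127 TERRA KD replicate 1 peaks with such a tract, ATRX shares were 66.1% (scramble KD) and 85.04% (TERRA KD) in replicate 1, and 63.8% and 64.6% in replicate 2. G4 peaks were on 5, 5, 2 and 1 of them (scramble KD 1, TERRA KD 1, scramble KD 2, TERRA KD 2), and ATAC peaks on 2 of 7 in both scramble KD lists and on 4 of 7 in both TERRA KD lists. Over the 127 peaks the ATAC shares were 48.8% and 54.3% in scramble KD, and 63.8% and 69.3% after TERRA knockdown.

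ATRX peaks were rare on TERRA KD-only sites as a whole. They lay on 16 (0.979%) and 56 (3.43%) of the 1634 sites in scramble KD replicates 1 and 2. After TERRA knockdown they lay on 202 (12.4%) and 75 (4.59%). Both TERRA KD libraries were above both scramble KD libraries, 8.48% ± 5.50 against 2.203% ± 1.73 (SD, n = 2 each), a difference of 6.27 percentage points with a two-sided exact permutation p of 0.333, the smallest that 2 against 2 libraries can give. The TERRA KD replicate 1 library set its size: the difference was 2.39 points without it. That list held 41384 peaks from the shallowest ATRX library (4104486 tags), and the other ATRX lists held 7321 to 21718. With the same number of top peaks taken from each ATRX list the difference was 1.25 points, and with ATRX peaks at a -log10 p of at least 5 it was 0.67. ATRX and H3K9me3 peaks of a condition and replicate were called against the same input library, so they are not fully separate readouts.

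Constant sites carried ATRX more often in each library, at 10.3% and 12.9% in scramble KD, and 49.2% and 19.7% after TERRA knockdown. The shares at TERRA KD-only sites were lower in 4 of 4 libraries, by a mean of 17.7 points (exact sign-flip permutation test, two-sided p = 0.125, the smallest that 4 libraries can give). Restricted to sites of 2000 to 3000 bp the mean difference was -5.15 points, still lower in every library. Scramble KD-only sites, had ATRX shares of 2.53% and 2.64% in scramble KD, and 9.47% and 5.18% after TERRA knockdown. The difference between conditions was 1.54 points larger at TERRA KD-only than at scramble KD-only sites (exact permutation p = 0.667), and -0.20 points without TERRA KD replicate 1.

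At single sites, 1330 TERRA KD-only sites (81.4%) had no ATRX peak in any list and 2 had one in all 4. An ATRX peak in both TERRA KD lists and neither scramble KD list was found at 20 sites (1.22%), below the 4.62% of all TERRA KD replicate 1 peaks with that pattern. The reverse pattern was found at 0 of 1634 sites, and at 19 of all 25490 peaks (0.0745%). The best ranked of the 20 was an intergenic site on chr13 (85840384 to 85845909, 5526 bp, fully masked) with a -log10 p of 13.4 and 5.41 and ATAC peaks in all 4 libraries. A site on chr8 (123543000 to 123548209) covered the 5S ribosomal RNA genes n-R5s103, n-R5s104 and n-R5s105, had 218 tags and 18 G4 motifs, and carried G4 and ATAC peaks in all 4 lists. The 5S genes lie in a tandem array of near-identical copies, so the place of its reads is uncertain.

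A pair of the 20 lay on chr2 in a simple repeat of the unit GGAGCA, shown here on the strand that reads GGAGCA and with perfect units in capitals.

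chr2:51947541-51947660, plus strand: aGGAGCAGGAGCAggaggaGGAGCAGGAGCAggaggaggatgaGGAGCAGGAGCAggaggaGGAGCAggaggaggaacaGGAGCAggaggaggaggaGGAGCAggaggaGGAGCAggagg

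chr2:51553637-51553756, minus strand: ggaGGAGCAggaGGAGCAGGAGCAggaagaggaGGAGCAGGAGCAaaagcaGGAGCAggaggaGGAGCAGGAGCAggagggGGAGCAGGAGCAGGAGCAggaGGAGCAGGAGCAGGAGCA

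The first site (51946161 to 51948017) held 170 copies of the unit and the second (51552667 to 51555011) 219, their GC contents were 64.5% and 64.1%, and both had G4 peaks in all 4 libraries and ATAC peaks in none. The repeat was looked for in other sites after these values were seen. At least 20 copies on one strand were present in 6 TERRA KD-only sites, and 5 of these 6, the pair above included, had ATRX in both TERRA KD lists only. In all TERRA KD replicate 1 peaks 27 held 20 copies or more and 12 of them had that ATRX pattern. It was present at 1 of 11 constant sites, 1 of 4 scramble KD-only sites and 5 of 29 scramble KD replicate 1 peaks with the repeat.

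G4 peaks were the most frequent overlap. They were on 27.9% and 49.3% of the TERRA KD-only sites in scramble KD replicates 1 and 2, and on 30.5% and 27.4% after TERRA knockdown. The scramble KD libraries lay on both sides of the TERRA KD values, and the difference of -9.70 points (28.9% ± 2.21 against 38.6% ± 15.1, SD, n = 2 each) had an exact permutation p of 0.667. Scramble KD replicate 2, with 24588605 tags and 389434 peaks, was the highest value. TERRA KD replicate 2 was the lowest with 13127555 tags and 225024 peaks, and scramble KD replicate 1, the shallowest library with 2961038 tags, was close to it. Both G4 replicates of a condition were called against 1 shared input. Without scramble KD replicate 2 the difference was 1.01 points. A G4 peak in both TERRA KD lists and neither scramble KD list lay on 6 sites (0.367%), as on 0.369% of all TERRA KD replicate 1 peaks. The reverse lay on 38 (2.33%), against 2.1%.

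Constant sites had more G4 peaks in 4 of 4 libraries (32.9%, 75.4%, 47.6% and 52.5% in scramble KD 1 and 2 and TERRA KD 1 and 2), by a mean of 18.3 points (exact sign-flip permutation p = 0.125). At sites of 2000 to 3000 bp the mean difference was -4.09 points (exact p = 0.5) and no longer had 1 sign, since TERRA KD-only sites were higher in both replicate 1 libraries (27.8% against 23.9%, and 31.6% against 31.2%). The change between conditions differed from that at scramble KD-only sites by -4.41 points (exact permutation p = 0.667). Predicted G4 motifs, 4 runs of at least 3 G with loops of 1 to 7 bases on either strand, were present in 268 sites (16.4%), 18.7% of scramble KD-only and 39.5% of constant sites. Per kb of sites there were 0.0933 motifs, against 0.128, 0.110 and 0.185 in scramble KD-only sites, constant sites and the whole sequenced genome.

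ATAC peaks lay on 18.3% and 22.5% of TERRA KD-only sites in scramble KD, and on 21.7% and 25.03% after TERRA knockdown, 20.4% ± 2.94 against 23.3% ± 2.38 (SD, n = 2 each). The difference of 2.97 points came with overlapping groups (exact permutation p = 0.667), and the numbers of ATAC peaks in the lists were 78571 and 96994 against 86535 and 103911 in the same order. An ATAC peak was present in all 4 lists at 252 sites (15.4%) and in none at 1166 (71.4%). It was present in both TERRA KD lists alone at 14 sites (0.857%, against 1.02% of all TERRA KD replicate 1 peaks) and in both scramble KD lists alone at 4 (0.245%, against 0.322%).

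Constant sites had ATAC shares of 17.7%, 23.1%, 21.0% and 28.6%, higher than TERRA KD-only sites in 2 of 4 libraries (mean difference -0.73 points, exact sign-flip permutation p = 0.75). The comparison depended on width. Among sites of 2000 to 3000 bp, 670 TERRA KD-only sites had ATAC shares of 18.1% to 25.1% and 1521 constant sites 8.94% to 15.6%, a mean difference of 9.84 points in the same direction in 4 of 4 libraries (exact p = 0.125). The 243 scramble KD-only sites of that width had 18.1% to 23.9%. Over all widths, ATAC shares were higher at TERRA KD-only than at scramble KD-only sites in 4 of 4 libraries, and the change between conditions differed by 0.38 points (exact permutation p = 1).

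**Figure D4:**
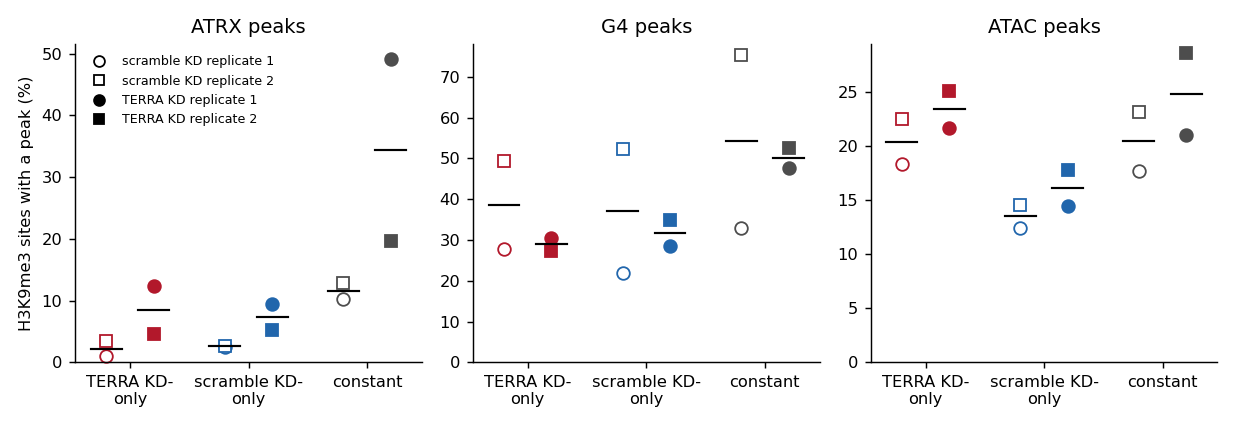
Percent of TERRA KD-only (red), scramble KD-only (blue) and constant (grey) H3K9me3 sites with an ATRX, G4 or ATAC peak in each library. Open symbols are scramble KD, filled symbols TERRA KD, circles replicate 1, squares replicate 2 and black lines the mean of 2 libraries. ATRX shares at TERRA KD-only sites were 0.979% and 3.43% in scramble KD, 12.4% and 4.59% after TERRA knockdown, and below those at constant sites in each library.

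Many of the open sites held the shared word. Of the 252 TERRA KD-only sites with an ATAC peak in all 4 lists, 171 (67.9%) held the word, against 238 of 1160 sites (20.5%) without any ATAC peak. Sites with the word had ATAC peaks at 37.1%, 44.3%, 45.9% and 47.3% (scramble KD 1, TERRA KD 1, scramble KD 2, TERRA KD 2), and sites without it at 10.3%, 12.0%, 12.48% and 15.6%. The lowest of the first was above the highest of the second. The 117 scramble KD-only sites with the word had 14.5% to 19.7%, and the 2087 constant sites with it 21.8% to 32.8%. Scramble KD-only sites without the word had 12.2% to 17.5%. In all TERRA KD replicate 1 peaks the ATAC shares were 26.2% to 35.8% with the word and 15.0% to 23.1% without it.

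G4 peaks also lay more often on sites with the word, at 57.3%, 53.7%, 64.9% and 30.2% in the same order, against 15.2%, 20.5%, 42.7% and 26.1% without it. All TERRA KD replicate 1 peaks had the same order, at 55.4%, 58.5%, 78.2% and 47.3% with the word and 21.6%, 33.0%, 59.2% and 39.6% without it. Of the 140 sites on chromosomes with a G4 peak in all 4 lists 66 held the word (47.1%), and of the 644 without any 77 did (12.0%). ATRX showed no such order: 41 of 490 sites with the word (8.37%) carried ATRX in the first TERRA KD library, against 14.0% without it, while in scramble KD replicate 2 the shares were 6.33% and 2.197%. X sites held the word about as often as the rest, since 12.7% of sites with it and 11.6% of those without it were on X.

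**Figure D5:**
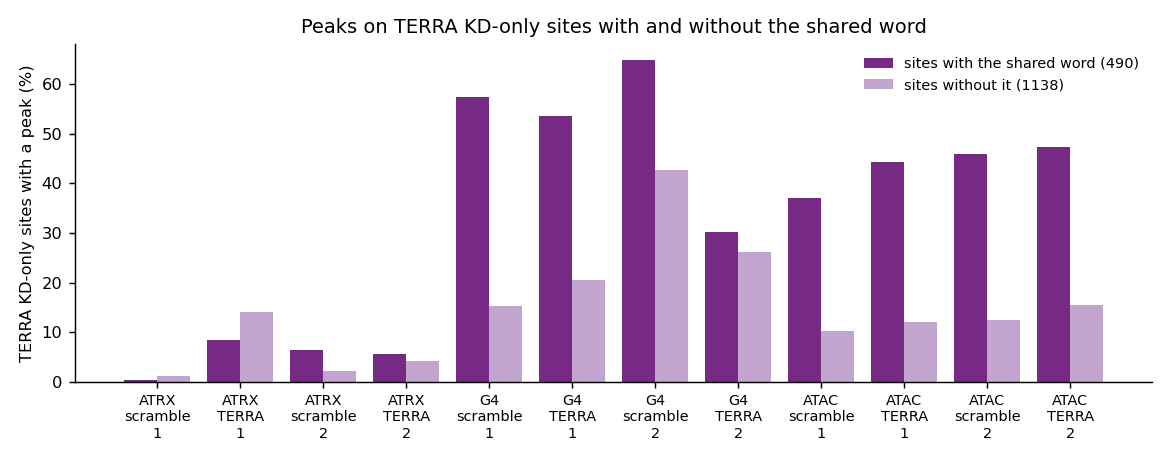
Percent of TERRA KD-only sites with a peak in each of the 12 ATRX, G4 and ATAC libraries, for the 490 sites that hold the shared word (dark) and the 1138 that do not (light). ATAC shares were 37.1% to 47.3% with the word and 10.3% to 15.6% without it.

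Taken over any of the lists, 470 TERRA KD-only sites (28.8%) had no ATRX, G4 or ATAC peak, while 8.01% of constant and 27.4% of scramble KD-only sites had none. G4 without the other marks was the most common state, at 518 sites (31.7%). G4 with ATAC followed at 252 (15.4%), and all 3 were found at 112 (6.85%), against 19.9% of constant sites and 3.96% of scramble KD-only sites. ATRX without G4 or ATAC was found at 73 sites (4.47%).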

How the data were processed

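ATRX, H3K9me3, G4 and ATAC peak lists of 2 scramble KD and 2 TERRA KD samples each were analysed. Per the study's methods, the authors trimmed reads with Trim Galore 0.5.0, aligned them to mm10 with Bowtie2 2.3.4.1 at default settings, removed duplicates with SAMtools 1.9 and ran MACS on every library separately with a p-value limit of 0.01. Per the file headers, MACS was 1.4.3 for ATRX and H3K9me3, 1.4.2 for G4, and 2.2.7.1 for ATAC, which had no input. The deposited lists give the count of tags in a peak, a score of -10 log10 p (divided by 10 here), a fold enrichment, which is the ratio of tags to the local background, and a false discovery rate in percent. For ATAC, the deposited values are the pileup signal, the fold ratio and the -log10 p. None is scaled between libraries.

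Sites were compared by overlap of at least 1 bp in Python 3.11.15 with pandas 2.3.3. No peak reached past the end of its GRCm38 chromosome. Genes were curated RefSeq genes of GRCm38, and 6 sites on unplaced sequence have no annotation. Shares of sites were compared over libraries with exact permutation tests (2 against 2, smallest p of 0.333) or sign flips over 4 libraries (smallest p of 0.125), so no test here can reach 0.05. Members, lists and tests were chosen with earlier results of these data known. Named sites are the 10 best by the worse rank of -log10 p in both TERRA KD lists. Also named are up to 10 within 1 kb of a protein-coding start and up to 10 with ATRX in both TERRA KD lists alone. Up to 5 with telomeric tracts are named as well. Sites on chromosome 18 are not named. The overlap code was checked on simulated lists. Alternatives included stricter thresholds, a 1000 bp window, sites at least 5000 bp from scramble KD peaks, other anchors and each library left out. Equal list lengths for the other assays and sites of 2000 to 3000 bp were added after the data were seen.
The sequence of 1 site is not reported here.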

Additional observations from a re-analysis of the deposited data

How the results depend on the processing

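The number of TERRA KD-only sites moved with most settings. It was 20 with both TERRA KD peaks at a -log10 p of at least 5, 525 with all lists at that threshold, 139 with 50% of the peak shared, 920 with no scramble KD peak within 5000 bp, 5297 with replicate 2 as the anchor and 837 with lists of equal length, and ran from 3527 to 30699 with a library left out. Of 132 alternatives of the 9 differences in share 113 kept the direction and 19 reversed it, and no p could pass 0.05 under any of them. The ATRX difference between conditions ran from 2.39 to 10.2 points with a library left out, and the ATRX gap to constant sites from -20.4 to -11.3. The G4 difference between conditions ran from -20.4 to 1.01 points, and its gap to constant sites from -22.7 to -15.7. The ATAC difference ran from 0.887 to 5.05, and its gap to constant sites from -1.20 to 0.218.

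The ATAC gap to constant sites also reversed to 13.3 points (both TERRA KD peaks at 5), 4.28 (all lists at 5), 1.35 (no scramble KD peak within 5000 bp), 1.92 (1000 bp window), 2.18 (ATAC peaks at 5), 1.14 (equal list lengths) and 9.84 (2000 to 3000 bp). Against scramble KD-only sites, with both TERRA KD peaks at 5, where 20 and 2 sites are left, the ATRX change was -5 points, the G4 change 12.5 and the ATAC change -17.5. With 50% of the peak shared the G4 change was 2.87. The ATAC change was -0.055 with replicate 2 as the anchor and -0.972 in the 1000 bp window. With a library left out these changes ran from -0.201 to 3.28 (ATRX), -9.11 to 0.286 (G4) and -0.654 to 1.41 (ATAC). The cause was not tested. With the replicate block, as sign flips of 2 pairs with a smallest p of 0.5, the differences were 6.27 (ATRX), -9.70 (G4) and 2.97 points (ATAC) with p of 0.5, 1 and 0.5, and 1.54, -4.41 and 0.38 against scramble KD-only sites with p of 1, 0.5 and 1, in the same direction. The deviations of same-numbered libraries over 1 Mb bins correlated at 0.278 (H3K9me3), 0.028 (ATRX), 0.546 (G4) and 0.107 (ATAC), and 2 pairs cannot settle whether the numbers pair samples.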
